A study of Mus musculus with 8 samples.

Results

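The subject is the transcription of 49 mouse genes that license replication origins, build the replication fork and supply deoxynucleotides (dNTPs), measured by RNA sequencing in splenic B cells. The members were listed by symbol, which was mapped from the Ensembl identifiers, and all 49 were found among the 37583 genes counted. Every member also passed the filter on low counts that left 13964 genes for testing, and the lowest count of any member in any library was 25. The TLR group (2 libraries, labelled Bregs-TLR) held B cells kept with the TLR9 ligand CpG ODN1668 in a 3-day culture, with LPS, PMA and ionomycin present during its last 5 hours. The CpG group (3 libraries, labelled Bregs-CpG) had the CpG oligonucleotide alone over the same 3 days, and the naive group (3 libraries) held B cells given none of these agents. All cells came from spleens of C57BL/6 mice, and no genotype, age or sorting of the cultured cells is stated. None of the 8 libraries was cultured without CpG, so effects of culture and of CpG cannot be told apart, and LPS, PMA and ionomycin were not given singly.

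A replication origin is licensed in G1, when the origin recognition complex, Cdc6 and Cdt1 load the ring-shaped MCM2-7 helicase onto DNA in an inactive form. At S phase the kinase Cdc7 with Dbf4, and then Cdc45 and the GINS complex, turn that ring into the active helicase, behind which polymerase alpha with primase starts each strand and polymerases delta and epsilon extend it on the sliding clamp PCNA. Ribonucleotide reductase and thymidylate synthase make the dNTPs that the fork uses. Resting B cells hold many of these genes at low levels, and mitogenic signals induce a large share of them through E2F transcription factors.

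Levels are CPM, the deposited count of a gene scaled to a fixed library total after TMM normalization, and each is a share of a library's reads. In these bulk libraries a change in the number of cells in cycle and a change in RNA per cell cannot be told apart. Differences are log2 fold changes ± SE from edgeR's quasi-likelihood fit over all 8 libraries, and a gene was called at a Benjamini-Hochberg adjusted p below 0.05 over all 13964 tested genes. Whether the libraries of a group stem from different mice or cultures is not stated, so a p-value reflects the spread between libraries that may be technical replicates.

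Gene totals ran from 15804311 to 20069272 counts, so that 1 count was worth 0.0498 to 0.0633 CPM. Replicate 1 of each group carried another library prefix than the other 5 libraries, and 37.5% to 50.2% of the counting total, summary lines included, were alignments to several places there, against 14.7% to 21.5% in the others. CpG replicate 1 also stood apart within its group in the replication genes, as described after the members' values. B cell markers summed to 2952 and 3149 CPM in the TLR libraries, 9317 to 13712 CPM in the CpG libraries and 10883 to 11529 CPM in the naive libraries. All 8 of them were called lower in TLR against CpG cells, and none was called in CpG against naive cells. Naive libraries held more RNA of macrophage, monocyte and natural killer markers. The sum of 9 macrophage and monocyte markers came to 12.7 and 17.3 CPM in TLR, 17.2 to 37.3 CPM in CpG, and 1272, 310 and 165 CPM in naive replicates 1 to 3. Natural killer markers summed to 1.08 and 1.65 CPM in TLR, 1.74 to 2.99 CPM in CpG and 12.8 to 62.5 CPM in naive libraries. Other lists did not all share this order. Erythroid markers summed to 35.3 and 37.0 CPM in TLR, 4.45 to 12.6 CPM in CpG and 6.16 to 57.4 CPM in naive libraries. The single gene Hbb-bt held 33.3 and 36.3 CPM of the sums in TLR. Of the 6 erythroid markers tested, 2 were called higher and none lower in TLR against CpG (19.0% and 19.8% of all tested genes). In TLR against naive 1 was higher and 3 lower (31.6% and 29.7%). Plasma cell markers summed to 284 and 334 CPM in TLR, 837 to 967 CPM in CpG and 383 to 1448 CPM in naive libraries. Sums of T cell and of dendritic cell markers overlapped between CpG and naive libraries, although most single markers of both lists were lower with CpG. Of 9 T cell markers 7 were called lower and none higher, and of 6 dendritic cell markers 4 and none. Of all tested genes 21.9% were lower. Lck made up most of the T cell sum, at a mean of 55.3 CPM in CpG and 54.6 CPM in naive libraries. Flt3 had 9.03, 38.7 and 13.7 CPM in the CpG libraries. The part of these cells in the results was not tested.

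Promoter windows of 7 members are shown first, because they include 4 genes of the MCM2-7 ring, the origin genes Orc1 and Cdc6 that rose with CpG, and Pold1, which fell. Each is the RefSeq window of GRCm38.p6 that runs from 250 bases before the annotated start through the first 50 bases of the gene, on the strand of the gene. Capitals mark matches to the E2F octamers TTTGGCGC, TTTCGCGC or TTTCCCGC, read on either strand.
The windows are chr1:20820263-20820562 (minus strand) for Mcm3, chr8:75109259-75109558 (plus) for Mcm5, chr1:128359656-128359955 (minus) for Mcm6, chr5:138171834-138172133 (minus) for Mcm7, chr4:108579204-108579503 (plus) for Orc1, chr11:98907901-98908200 (plus) for Cdc6 and chr7:44548766-44549065 (minus) for Pold1.
Mcm3: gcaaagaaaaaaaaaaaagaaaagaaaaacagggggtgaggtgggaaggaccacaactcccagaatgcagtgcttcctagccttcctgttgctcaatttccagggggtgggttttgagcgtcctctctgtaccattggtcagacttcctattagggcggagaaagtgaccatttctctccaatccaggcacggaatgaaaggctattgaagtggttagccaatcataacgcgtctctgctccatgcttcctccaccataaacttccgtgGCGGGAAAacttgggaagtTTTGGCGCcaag
Mcm5: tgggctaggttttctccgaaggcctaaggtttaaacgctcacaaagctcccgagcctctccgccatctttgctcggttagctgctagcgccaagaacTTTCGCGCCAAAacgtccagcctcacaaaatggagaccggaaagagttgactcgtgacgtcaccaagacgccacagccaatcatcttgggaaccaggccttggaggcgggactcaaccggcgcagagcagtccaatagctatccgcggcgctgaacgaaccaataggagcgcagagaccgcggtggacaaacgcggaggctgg
Mcm6: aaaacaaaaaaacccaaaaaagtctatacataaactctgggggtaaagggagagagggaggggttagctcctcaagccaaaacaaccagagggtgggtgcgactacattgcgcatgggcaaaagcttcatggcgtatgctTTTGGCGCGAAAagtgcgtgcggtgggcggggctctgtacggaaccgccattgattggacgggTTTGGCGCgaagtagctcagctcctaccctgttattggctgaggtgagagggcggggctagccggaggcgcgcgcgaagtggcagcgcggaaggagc
Mcm7: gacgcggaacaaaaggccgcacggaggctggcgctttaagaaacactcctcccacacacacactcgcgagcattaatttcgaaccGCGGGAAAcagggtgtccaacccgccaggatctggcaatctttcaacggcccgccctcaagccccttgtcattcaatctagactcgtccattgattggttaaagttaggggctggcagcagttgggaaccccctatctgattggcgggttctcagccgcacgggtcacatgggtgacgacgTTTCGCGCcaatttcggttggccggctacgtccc
Orc1: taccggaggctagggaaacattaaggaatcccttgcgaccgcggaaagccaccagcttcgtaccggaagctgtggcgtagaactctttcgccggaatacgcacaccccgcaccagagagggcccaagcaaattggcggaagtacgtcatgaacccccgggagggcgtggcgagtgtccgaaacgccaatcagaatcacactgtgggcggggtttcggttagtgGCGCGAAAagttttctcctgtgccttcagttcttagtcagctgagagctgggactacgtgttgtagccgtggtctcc
Cdc6: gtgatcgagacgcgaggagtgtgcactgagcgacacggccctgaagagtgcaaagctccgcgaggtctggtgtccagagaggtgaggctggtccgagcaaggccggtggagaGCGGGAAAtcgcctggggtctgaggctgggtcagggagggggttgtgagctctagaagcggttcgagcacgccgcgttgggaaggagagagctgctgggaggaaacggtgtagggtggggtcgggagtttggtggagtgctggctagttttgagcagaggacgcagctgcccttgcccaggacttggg
Pold1: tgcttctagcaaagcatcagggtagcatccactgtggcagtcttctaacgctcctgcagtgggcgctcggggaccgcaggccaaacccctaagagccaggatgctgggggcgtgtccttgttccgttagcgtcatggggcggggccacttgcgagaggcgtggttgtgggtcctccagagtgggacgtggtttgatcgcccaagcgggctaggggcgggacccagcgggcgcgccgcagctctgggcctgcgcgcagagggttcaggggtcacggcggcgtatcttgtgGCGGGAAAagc

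In Mcm5 and in Mcm6 an octamer on the plus strand overlaps one on the minus strand, so that each forms a run of capitals longer than 1 octamer, and Mcm6 has a separate octamer nearer its start. In Mcm7 the last base of the octamer after the start is also the first base of a CCAAT pentamer. The octamer TTTGCCGC was searched as well and occurred in no member's window. Promoters were at hand for 41 of the 49 members. The 8 without one were Gins1, Gins2, Gins4, Gmnn, Mcm4, Pole, Prim2 and Rfc2. An E2F octamer was found in 16 of the 41 (39.0%), against 2.61% of the 27025 genes in the table and 4.64% of the 9915 tested genes that had a promoter. The other members with a match were Mcm8, Orc3, Rfc3, Lig1, Pold3, Gins3, Cdt1, Pole2 and Pola1. The CCAAT pentamer was in 24 of 41 members (58.5%), 41.1% of all genes and 42.8% of the tested genes. The CHR hexamers TTTGAA and TTCGAA were in 9 of 41 (21.95%), 21.7% of all genes and 16.4% of the tested genes. These matches are letters in a window and do not show that a factor binds there.

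In CpG against naive cells 38 of the 49 members were called higher, while 23.5% of all tested genes were. Only Pold1 was called lower (21.9% of all tested genes), and 10 members were not called. The median log2 fold change of the members was 1.28, with a range of -0.69 to 4.03, against 0.01 over all tested genes. In TLR against CpG cells 19 members were called higher (19.0% of all tested genes) and 2, Rfc2 and Rpa3, lower (19.8%). The median there was 0.32 with a range of -0.70 to 1.37, against -0.02 over all tested genes, and Orc1 alone passed a 2-fold rise. In TLR against naive cells 42 members were called higher (31.6% of all tested genes) and Pold1 lower (29.7%), with a median of 1.68. These comparisons share libraries, so their values are set side by side here and not combined. With a single TLR library left in the fit, which is then assumed to vary like the other groups, the TLR against CpG comparison called 8 members higher without either TLR replicate 1 or TLR replicate 2.

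**Figure D1:**
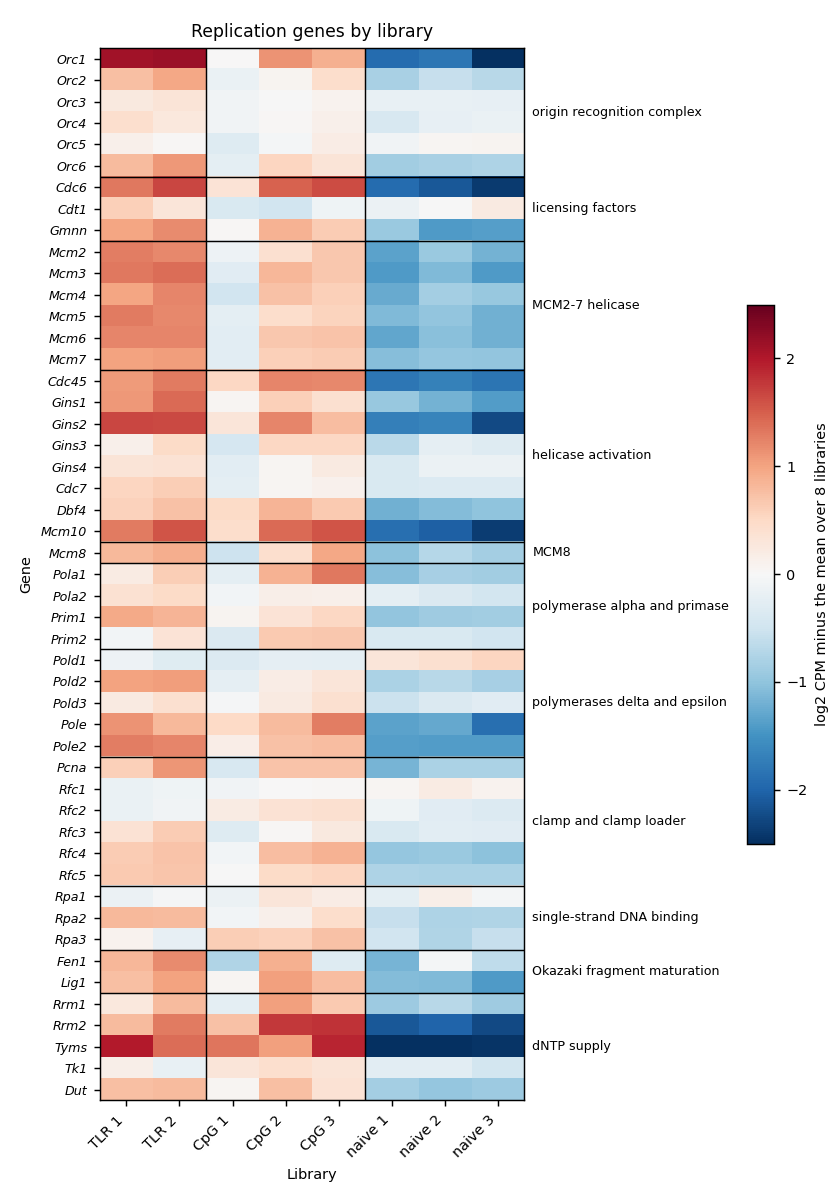
Heat map of the 49 replication genes (vertical axis, grouped by role) in the 8 libraries (horizontal axis, TLR, CpG, then naive). Colour is log2 CPM minus the gene's mean over the 8 libraries, from blue (low) to red (high). Most genes are red in both TLR libraries and blue in the 3 naive libraries, with CpG replicate 1 paler than the other CpG libraries, and Pold1 runs the other way.

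The origin recognition complex binds origins as a ring of subunits, and its 6 genes split evenly. Orc1, Orc2 and Orc6 were called higher with CpG, and Orc3, Orc4 and Orc5 were not. Orc1, an ATP-binding subunit that is made and destroyed with the cell cycle, had 36.3 and 37.3 CPM in the TLR libraries, 8.51, 18.4 and 15.7 CPM in the CpG libraries and 2.24, 2.40 and 1.46 CPM in the naive libraries. The groups formed separate steps without overlap. The log2 fold change was 2.80 ± 0.31 in CpG against naive (adjusted p = 9.15e-05) and 1.37 ± 0.30 in TLR against CpG (adjusted p = 0.00496). Orc2 averaged 146 CPM in TLR, 88.0 CPM in CpG and 49.6 CPM in naive cells, and Orc6 averaged 62.5, 38.5 and 18.4 CPM in the same groups. Both passed the test at both steps, except that without TLR replicate 2 neither was called in TLR against CpG (adjusted p = 0.0742 for Orc2 and 0.167 for Orc6). About 29.8% of the annotated exon length of Orc2 overlaps Nif3l1 on the opposite strand, and the counting ignored strand.

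The remaining origin subunits moved little. Orc3, the member of the complex with the highest mean CPM, had 108 and 115 CPM in TLR, 86.1, 90.5 and 97.5 CPM in CpG and 80.2, 80.5 and 79.7 CPM in naive libraries. Its libraries did not overlap between groups, yet the change was small: 0.19 ± 0.09 in CpG against naive (adjusted p = 0.1249) and 0.29 ± 0.10 in TLR against CpG (adjusted p = 0.0499, and 0.0593 to 0.243 when any 1 of CpG replicates 1 and 2 or the TLR replicates was left out). Orc4 had 86.5 and 78.4 CPM in TLR, 61.3, 66.6 and 71.3 CPM in CpG and 49.5, 56.2 and 57.7 CPM in naive libraries, and neither step passed the test (adjusted p = 0.0566 and 0.0676). Without CpG replicate 1, Orc3 and Orc4 were both called higher in CpG against naive cells (adjusted p = 0.0489 and 0.0264). Orc5 had 35.3 and 32.9 CPM in TLR, 25.8, 30.9 and 36.6 CPM in CpG and 30.1, 33.2 and 33.6 CPM in naive libraries. Its groups overlapped throughout.

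Per kilobase of merged exon, Orc1 was the lowest of the 6 subunits in naive cells, at 0.585 ± 0.145 CPM per kb, and Orc3 and Orc2 the highest at 13.2 ± 0.0703 and 12.9 ± 1.05 CPM per kb (SD, n = 3), which did not differ beyond their spread. In TLR cells Orc1 reached 10.6 ± 0.211 CPM per kb, within the spread of Orc4 at 11.1 ± 0.771 CPM per kb (SD, n = 2). The ratio of the highest to the lowest subunit per kb was 6.87 ± 1.08 in TLR, 6.06 ± 1.65 in CpG and 23.9 ± 6.25 in naive libraries. With the longest transcript of each gene as length it was 4.70, 7.06 and 40.3. TLR and CpG libraries overlapped with either length, and the order of their means depended on it.

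Of the licensing factors, Cdc6, the ATPase that joins the origin complex to load the helicase, had 48.3 and 61.1 CPM in TLR, 24.4, 53.3 and 60.0 CPM in CpG and 5.10, 4.46 and 3.65 CPM in naive libraries. The stimulated libraries were all above the naive ones, and TLR and CpG overlapped. The rise with CpG was 10.4-fold (log2 fold change 3.38 ± 0.32, adjusted p = 4.11e-05). Cdt1, its partner in loading, went another way, with 127 and 103 CPM in TLR, 64.6, 60.4 and 77.4 CPM in CpG and 75.6, 82.5 and 97.2 CPM in naive libraries. CpG and naive libraries overlapped (-0.34 ± 0.14, adjusted p = 0.0787, and 0.0396 with CpG replicate 3 left out), and the TLR libraries lay above both (0.77 ± 0.16 against CpG, adjusted p = 0.00348). Gmnn encodes geminin, the inhibitor that holds Cdt1 back after S phase begins. It averaged 59.7 ± 5.66 CPM in TLR (SD, n = 2), 41.2 ± 11.5 CPM in CpG and 12.02 ± 2.36 CPM in naive libraries (SD, n = 3), and rose with CpG (1.78 ± 0.22, adjusted p = 0.0002). Per kb, the Cdt1 to Gmnn ratio was 1.06 and 0.757 in TLR, 1.05, 0.549 and 0.828 in CpG and 2.39, 3.68 and 4.18 in naive libraries. Every naive library lay above every stimulated one in that ratio, which was chosen after the values were seen.

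All 6 genes of the MCM2-7 helicase were called higher in CpG against naive cells, with log2 fold changes of 1.38 to 1.78 (median 1.44). In TLR against CpG cells 5 of the 6 were called higher, with all 6 between 0.64 and 0.96. Mcm6, the highest of the 6 in mean CPM, had 516 CPM in both TLR libraries, 185, 353 and 364 CPM in CpG and 90.0, 107 and 95.8 CPM in naive libraries. Mcm3 had 488 and 515 CPM in TLR, 160, 346 and 313 CPM in CpG and 73.7, 91.2 and 73.0 CPM in naive libraries. Mcm5 had 466 and 437 CPM in TLR, 160, 257 and 279 CPM in CpG and 88.0, 95.2 and 82.4 CPM in naive libraries. For each of the 6 genes both TLR libraries were above all CpG libraries, and these above all naive libraries. Of the 13964 tested genes, 4079 had both TLR libraries above all CpG libraries. All CpG libraries were above all naive ones in 3947 of them.

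Mcm3 changed most with CpG (1.78 ± 0.25, adjusted p = 0.000389) and Mcm5 most in TLR against CpG (0.96 ± 0.20, adjusted p = 0.00452). Mcm2 had 397 and 376 CPM in TLR, 149, 216 and 261 CPM in CpG and 64.7, 85.5 and 72.2 CPM in naive libraries, with changes of 1.49 ± 0.19 in CpG against naive and 0.89 ± 0.21 in TLR against CpG (adjusted p = 0.00779). Mcm7, whose host transcript also carries the small RNAs Mir25 and Mir93, averaged 252 CPM in TLR, 161 CPM in CpG and 61.8 CPM in naive cells. Mcm4 had 356 and 423 CPM in TLR, 130, 298 and 273 CPM in CpG and 75.5, 100.3 and 93.7 CPM in naive libraries. Its rise in TLR against CpG was 0.74 ± 0.29 (adjusted p = 0.0712). It passed the test with 0.45 (adjusted p = 0.0465) when CpG replicate 1 was left out and with 0.95 (adjusted p = 0.0364) when CpG replicate 2 was. Without TLR replicate 1, Mcm2, Mcm3, Mcm6 and Mcm7 were no longer called in TLR against CpG (adjusted p = 0.0501 to 0.135), and without TLR replicate 2 the same held for Mcm3, Mcm6 and Mcm7 (0.109 to 0.155). Mcm5 was called in both cases.

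Per kb of merged exon, the 6 subunits stayed within a narrow band in each group. The highest subunit was 2.42 ± 0.160 times the lowest in TLR (SD, n = 2), 2.39 ± 0.514 times in CpG and 2.38 ± 0.123 times in naive libraries (SD, n = 3). In TLR cells Mcm3 led at 134 ± 5.15 CPM per kb, followed by Mcm5, Mcm6 and Mcm4 at 113, 111 and 108 CPM per kb, which did not differ beyond their spread. Mcm7 and Mcm2 were lowest at 56.9 and 55.6 CPM per kb. In naive cells Mcm4, Mcm5, Mcm3 and Mcm6 lay together at 20.9 to 25.01 CPM per kb, above Mcm7 at 14.0 and Mcm2 at 10.7 CPM per kb. The band depended on the length used, since with the longest transcript of each gene the ratios were 1.72, 1.46 and 1.33 in TLR, CpG and naive cells.

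**Figure D2:**
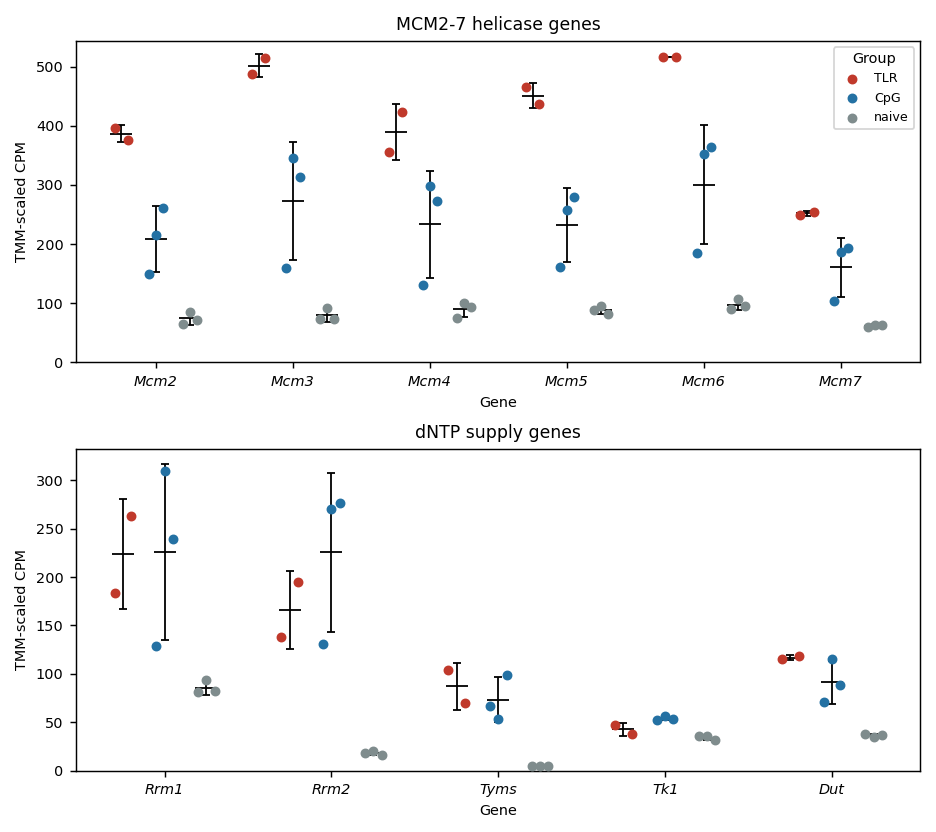
TMM-scaled CPM (vertical axes, linear, from 0) of the 6 MCM2-7 genes (upper panel) and the 5 dNTP supply genes (lower panel). Points are libraries, coloured for TLR, CpG and naive, and bars are the mean ± SD. Each MCM2-7 gene is highest in TLR, lower in CpG and lowest in naive libraries, while Rrm1, Rrm2 and Tyms overlap between CpG and TLR.

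Among the 8 genes that turn the loaded ring into an active helicase, 6 were called higher with CpG and 3 higher in TLR against CpG. Mcm10, which helps the active helicase leave the origin, had 51.1 and 61.6 CPM in TLR, 28.1, 55.2 and 61.6 CPM in CpG and 5.57, 5.01 and 4.02 CPM in naive libraries. Its change of 3.31 ± 0.29 with CpG was the largest of the group (adjusted p = 2.53e-05), and TLR overlapped CpG. Cdc45, a part of the active helicase, averaged 57.4 ± 6.50 CPM in TLR, 51.2 ± 12.9 CPM in CpG and 7.38 ± 0.379 CPM in naive cells. Dbf4, the regulatory subunit of the Cdc7 kinase and the member of the group with the highest mean CPM, had 74.1 and 83.3 CPM in TLR, 69.8, 89.5 and 78.2 CPM in CpG and 21.7, 23.5 and 24.8 CPM in naive libraries. Dbf4 was above naive in every stimulated library, with TLR and CpG overlapping (-0.01 ± 0.14). Its kinase Cdc7 averaged 70.0 CPM in TLR, 45.9 CPM in CpG and 36.6 CPM in naive cells, with a rise of 0.33 ± 0.12 in CpG against naive (adjusted p = 0.0446, and 0.103 to 0.131 when CpG replicate 2 or 3 or any 1 naive library was left out) and of 0.61 ± 0.13 in TLR against CpG (adjusted p = 0.0047).

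The 4 GINS genes, whose products form 1 complex, differed from each other. Gins1 had 26.7 and 33.3 CPM in TLR, 13.0, 18.9 and 16.4 CPM in CpG and 6.46, 5.51 and 4.75 CPM in naive libraries. The groups were separate, with rises of 1.53 ± 0.20 in CpG against naive and 0.90 ± 0.21 in TLR against CpG (adjusted p = 0.00744, or 0.0816 without TLR replicate 2). Gins2 rose 6.34-fold with CpG and averaged 40.1 CPM in TLR, 22.5 CPM in CpG and 3.54 CPM in naive cells, although 67.3% of its annotated exon length overlaps Gse1 on the opposite strand. Its rise in TLR against CpG (0.83 ± 0.25, adjusted p = 0.0268) was not called without CpG replicate 3 or without either TLR library (adjusted p = 0.066 to 0.112). Gins3 had 17.7 and 22.5 CPM in TLR, 12.1, 23.1 and 23.0 CPM in CpG and 10.1, 13.9 and 12.9 CPM in naive libraries, and CpG overlapped naive through its replicate 1 (0.66 ± 0.25, adjusted p = 0.0569, and 0.00402 with CpG replicate 1 left out). Gins4 had 50.6 and 51.9 CPM in TLR, 34.1, 41.9 and 47.8 CPM in CpG and 31.3, 36.6 and 36.7 CPM in naive libraries (0.24 ± 0.14 in CpG against naive, adjusted p = 0.182, and 0.0293 with CpG replicate 1 left out). Per kb, Gins4 stood highest and Gins2 lowest of the 4 in naive cells, at 25.8 ± 2.31 and 0.865 ± 0.187 CPM per kb. Reads of Gins2 in its overlap with Gse1 may have been set aside as ambiguous, which was not measured, so its rank is uncertain. Mcm8, a helicase paralogue known mainly for recombination, had 22.6 and 24.4 CPM in TLR, 9.09, 17.4 and 25.3 CPM in CpG and 6.35, 7.86 and 7.15 CPM in naive libraries. It rose with CpG (1.28 ± 0.31, adjusted p = 0.00817), and TLR lay within the range of CpG.

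Polymerase alpha and primase make the RNA-DNA primers, and all 4 of their genes were called higher with CpG. Pola2, the second subunit of the polymerase, had 87.4 and 92.9 CPM in TLR, 63.6, 74.2 and 73.5 CPM in CpG and 56.2, 52.1 and 48.96 CPM in naive libraries. The groups did not overlap, with changes of 0.43 ± 0.11 in CpG against naive and 0.36 ± 0.12 in TLR against CpG (adjusted p = 0.00942 and 0.0378). The first of these was not called without naive replicate 3 (adjusted p = 0.0538), and the second was not without CpG replicate 1 or either TLR library (0.0542 to 0.195). Pola1, the catalytic subunit, had 51.3 and 68.8 CPM in TLR, 38.0, 81.4 and 112 CPM in CpG and 21.4, 25.2 and 24.5 CPM in naive libraries. CpG spanned the TLR libraries on both sides. Prim1, the catalytic primase subunit, averaged 89.7 CPM in TLR, 60.1 CPM in CpG and 25.5 CPM in naive cells, and was called higher at both steps (0.58 ± 0.14 in TLR against CpG, adjusted p = 0.00837, or 0.0664 without TLR replicate 1). Prim2, the regulatory primase subunit, had 18.4 and 24.5 CPM in TLR, 15.0, 30.2 and 30.9 CPM in CpG and 14.7, 14.8 and 13.7 CPM in naive libraries. Its call with CpG (0.82 ± 0.26, adjusted p = 0.026) was lost without CpG replicate 2 or 3 or without any 1 naive library (0.0577 to 0.0932). In TLR against CpG, Pola1 and Prim2 were called lower without CpG replicate 1 (-0.68 and -0.51, adjusted p = 0.022 and 0.0384).

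The replicative polymerases held the member that fell. Pold1, the catalytic subunit of polymerase delta, had 167 and 149 CPM in TLR, 143, 156 and 153 CPM in CpG and 224, 242 and 265 CPM in naive libraries. All stimulated libraries were below all naive ones, and TLR overlapped CpG. The change was -0.69 ± 0.11 in CpG against naive (adjusted p = 0.000693) and 0.06 ± 0.12 in TLR against CpG (adjusted p = 0.704). Its accessory subunit Pold2 went the other way, with 114 and 116 CPM in TLR, 48.4, 64.5 and 69.5 CPM in CpG and 32.5, 35.01 and 31.5 CPM in naive libraries. These groups formed separate steps, with rises of 0.88 ± 0.14 and 0.91 ± 0.15 (adjusted p = 0.000753 in CpG against naive and 0.0011 in TLR against CpG). Per kb the Pold1 to Pold2 ratio was therefore 0.573 and 0.502 in TLR, 1.15, 0.944 and 0.861 in CpG and 2.69, 2.70 and 3.28 in naive libraries. The 3 groups did not overlap in this ratio, which was also chosen after the values were seen. In TLR cells Pold2 was the highest of the 5 polymerase delta and epsilon genes per kb and in naive cells Pold1 was, at 60.5 ± 0.713 (SD, n = 2) and 50.2 ± 4.20 CPM per kb (SD, n = 3).

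Pole, the catalytic subunit of polymerase epsilon, had 115 and 93.2 CPM in TLR, 74.5, 92.1 and 128 CPM in CpG and 20.99, 21.7 and 14.3 CPM in naive libraries. It had the largest change of these polymerase genes, 5.16-fold with CpG (2.37 ± 0.23, adjusted p = 4.12e-05), with TLR and CpG overlapping. Pole2, its second subunit, rose at both steps and averaged 43.0 CPM in TLR, 27.2 CPM in CpG and 6.96 CPM in naive cells (0.66 ± 0.18 in TLR against CpG, adjusted p = 0.0176, but 0.0955 and 0.0737 without TLR replicate 1 or 2). Pold3, a further delta subunit, rose with CpG by 0.60 ± 0.13 and stood at 120 CPM in TLR, 111 CPM in CpG and 73.4 CPM in naive cells.

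The sliding clamp and its loader were mixed. Pcna, the clamp, averaged 232 ± 57.2 CPM in TLR, 169.7 ± 64.6 CPM in CpG and 67.6 ± 9.495 CPM in naive cells, and rose with CpG (1.33 ± 0.28, adjusted p = 0.0037). Of the loader subunits, Rfc1, the largest and the one with the highest mean CPM, had 133 and 138 CPM in TLR, 140, 150 and 153 CPM in CpG and 155, 172 and 159 CPM in naive libraries. The libraries ran in the reverse order of most members, without overlap, but neither step passed the test (-0.13 ± 0.09 and -0.12 ± 0.11, adjusted p = 0.285 and 0.399). Rfc4 had 43.1 and 45.9 CPM in TLR, 26.6, 47.3 and 50.6 CPM in CpG and 14.3, 14.7 and 13.6 CPM in naive libraries, and had the largest rise with CpG in this group (1.55 ± 0.22). Rfc5 averaged 70.4 CPM in TLR, 56.3 CPM in CpG and 25.5 CPM in naive cells, and rose with CpG by 1.14 ± 0.15. Rfc3 had 47.7 and 57.6 CPM in TLR, 30.1, 37.9 and 44.4 CPM in CpG and 28.5, 31.3 and 30.5 CPM in naive libraries. CpG overlapped naive for Rfc3 (adjusted p = 0.122, and 0.0177 with CpG replicate 1 left out), and its rise in TLR against CpG (0.49 ± 0.17, adjusted p = 0.0429) was lost without CpG replicate 1 or 2 or either TLR library (0.0626 to 0.284).

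Rfc2 was 1 of the 2 members that fell in TLR against CpG cells. It had 118 and 126 CPM in TLR, 153, 172 and 175 CPM in CpG and 124, 109 and 105 CPM in naive libraries. CpG was above both other groups, and TLR overlapped naive. The rise with CpG was 0.56 ± 0.11 (adjusted p = 0.00212) and the fall in TLR against CpG -0.45 ± 0.12 (adjusted p = 0.0146, but 0.103 and 0.0522 without TLR replicate 1 or 2). Exons of Rfc2 overlap Lat2 on the opposite strand over 15.1% of their length.

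Replication protein A covers single-stranded DNA as a complex of 3 subunits, and its genes took 3 courses. Rpa1, the large subunit, had 183 and 199 CPM in TLR, 181, 248 and 229 CPM in CpG and 170, 222 and 195 CPM in naive libraries. All groups overlapped and neither step passed the test (adjusted p = 0.377 and 0.361). Rpa2, the middle subunit, averaged 127 ± 2.004 CPM in TLR, 83.0 ± 14.7 CPM in CpG and 45.2 ± 3.18 CPM in naive cells, rising at both steps (0.62 ± 0.15 in TLR against CpG, adjusted p = 0.00801, or 0.0526 without TLR replicate 1). Rpa3, the small subunit, had 24.97 and 20.4 CPM in TLR, 35.9, 35.3 and 39.2 CPM in CpG and 16.8, 14.1 and 15.8 CPM in naive libraries. CpG lay above TLR and TLR above naive without overlap. The rise with CpG was 1.24 ± 0.14 (adjusted p = 9.26e-05) and the fall in TLR against CpG -0.70 ± 0.15 (adjusted p = 0.00537, or 0.0586 without TLR replicate 2).

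Of the 2 genes for joining Okazaki fragments, Lig1, which encodes DNA ligase I, had 160 and 190 CPM in TLR, 98.4, 194 and 162 CPM in CpG and 44.8, 44.0 and 35.4 CPM in naive libraries. It rose 3.65-fold with CpG (1.87 ± 0.23, adjusted p = 0.000167), and TLR lay within the range of CpG. Fen1, the flap endonuclease, had 5.21 and 6.61 CPM in TLR, 1.74, 5.40 and 2.35 CPM in CpG and 1.30, 2.81 and 1.88 CPM in naive libraries, the lowest mean of all members. CpG overlapped both other groups (adjusted p = 0.259 against naive). In the annotation used here 78.8% of the exon length of Fen1 lies opposite the antisense gene Gm10143, so its reads may have been set aside as ambiguous or given to that gene, and how many were was not measured.

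All 5 genes of dNTP supply were called higher in CpG against naive cells, and none was called in TLR against CpG. Tyms, thymidylate synthase, had the largest change of all 49 members with CpG, with 104 and 69.8 CPM in TLR, 67.1, 53.8 and 99.1 CPM in CpG and 4.38, 4.26 and 4.85 CPM in naive libraries. Every stimulated library was far above the naive ones (16.3-fold with CpG, 4.03 ± 0.26, adjusted p = 5.2e-06), and TLR overlapped CpG. Rrm2, the small subunit of ribonucleotide reductase that cells make mainly in S phase, had 138 and 194 CPM in TLR, 131, 270 and 276 CPM in CpG and 18.3, 19.8 and 16.5 CPM in naive libraries. Both TLR values lay inside the range of CpG, above its replicate 1 and below its other 2 libraries (-0.44 ± 0.29, adjusted p = 0.255, but -0.71 and 0.00895 without CpG replicate 1). Rrm1, the large subunit and the highest of the group in mean CPM, had 183 and 264 CPM in TLR, 129, 309 and 240 CPM in CpG and 80.7, 93.8 and 81.8 CPM in naive libraries. It rose with CpG by 1.40 ± 0.28 (adjusted p = 0.00264), and TLR again lay inside the range of CpG.

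Per kb, the Rrm2 to Rrm1 ratio was 2.98 and 2.93 in TLR, 4.04, 3.47 and 4.58 in CpG and 0.900, 0.838 and 0.801 in naive libraries. Every stimulated library lay above every naive one in this ratio, an order that does not depend on gene length. The size of the ratio rests on the merged exon length and was not read with another length. Before division by length, Rrm1 was above Rrm2 in both TLR libraries, so which transcript was more abundant there is not settled. Dut, the dUTPase that keeps uracil out of DNA, averaged 117 ± 2.56 CPM in TLR, 91.2 ± 22.3 CPM in CpG and 36.5 ± 1.497 CPM in naive cells (1.32 ± 0.16 with CpG; 0.35 ± 0.17 in TLR against CpG, adjusted p = 0.137, and 0.0127 with CpG replicate 2 left out). Tk1, the cytosolic thymidine kinase of the salvage route, averaged 42.5 ± 6.89 CPM in TLR, 54.1 ± 2.33 CPM in CpG and 34.0 ± 2.54 CPM in naive cells. It had the smallest change of the group with CpG (0.67 ± 0.12), and both its TLR libraries were below all CpG libraries (-0.35 ± 0.14, adjusted p = 0.0696, or 0.0482 without TLR replicate 1). The annotation used here lists processed pseudogenes of Tyms and of Pcna, and reads shared with them may be missing from their counts.

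**Figure D3:**
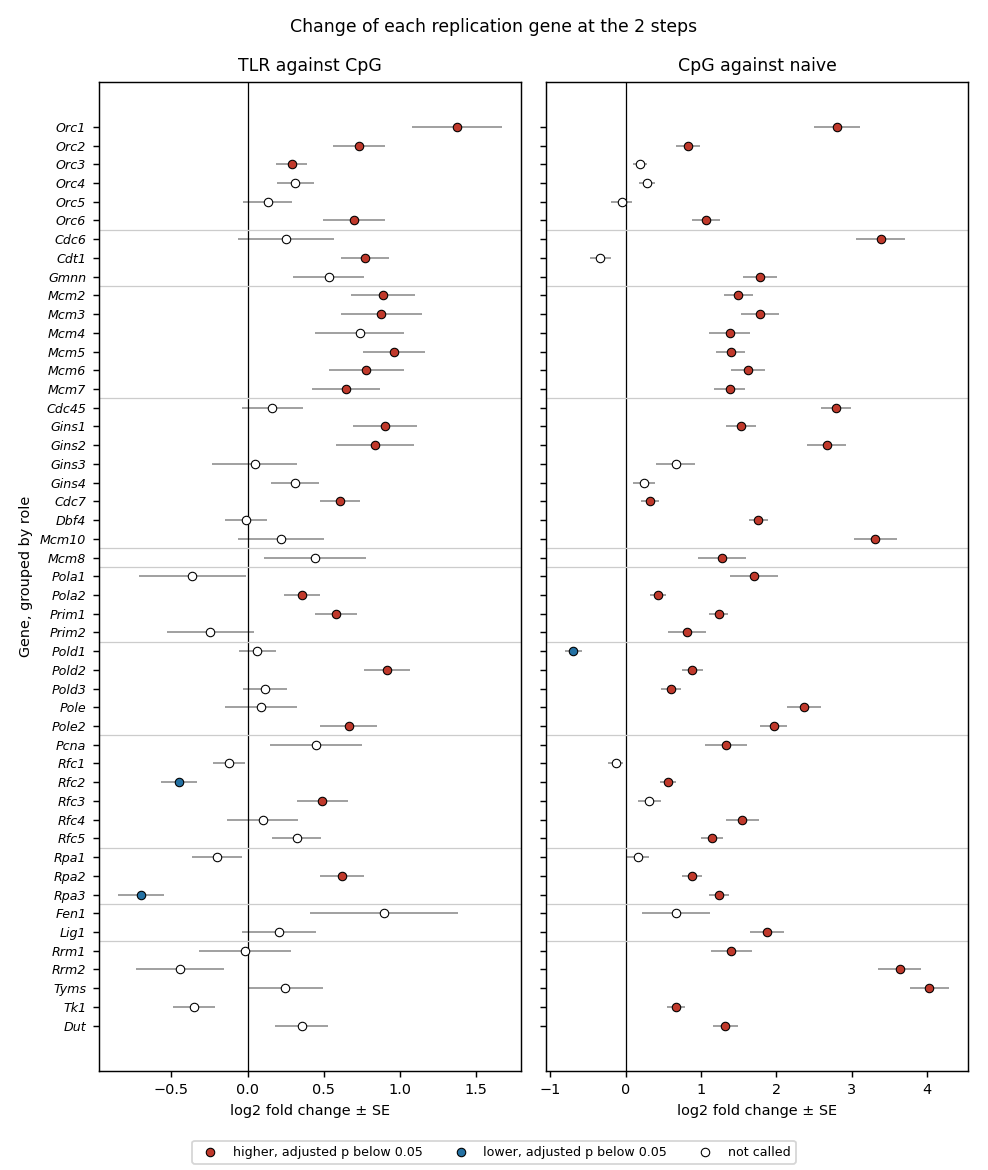
Log2 fold change ± SE of each member (horizontal axes) in TLR against CpG (left) and CpG against naive (right), with genes grouped by role down the vertical axis. Filled red points were called higher, filled blue points lower, and open points were not called. The MCM2-7 genes lie right of 0 in both panels, the dNTP supply genes have filled points in the right panel only, and Rfc2 and Rpa3 are blue on the left and red on the right.

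The make-up of the replication transcripts differed between the groups. The summed CPM of the 49 members was 6057 and 6427 in TLR, 3419, 5287 and 5391 in CpG and 2230, 2465 and 2348 in naive libraries. The MCM2-7 genes made up 40.0 ± 1.11% of this sum in TLR libraries (SD, n = 2), 29.5 ± 3.05% in CpG libraries and 20.9 ± 0.990% in naive libraries (SD, n = 3). For the dNTP supply genes the shares were 10.2 ± 0.664%, 14.1 ± 1.03% and 7.61 ± 0.339% in the same groups. Polymerases delta and epsilon held 8.66 ± 0.633% in TLR, 9.73 ± 1.30% in CpG and 16.0 ± 0.768% in naive libraries. The summed CPM of MCM2-7 was 4.21 and 3.69 times that of dNTP supply in TLR, 1.97, 2.06 and 2.23 times in CpG and 2.55, 2.88 and 2.81 times in naive libraries. TLR was highest, naive next and CpG lowest, with no overlap. This ratio does not depend on how libraries are scaled, was chosen after the values were seen and is given without a test, and with both sums taken per kb it was 3.84, 1.99 and 3.10 in TLR, CpG and naive cells.

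**Figure D4:**
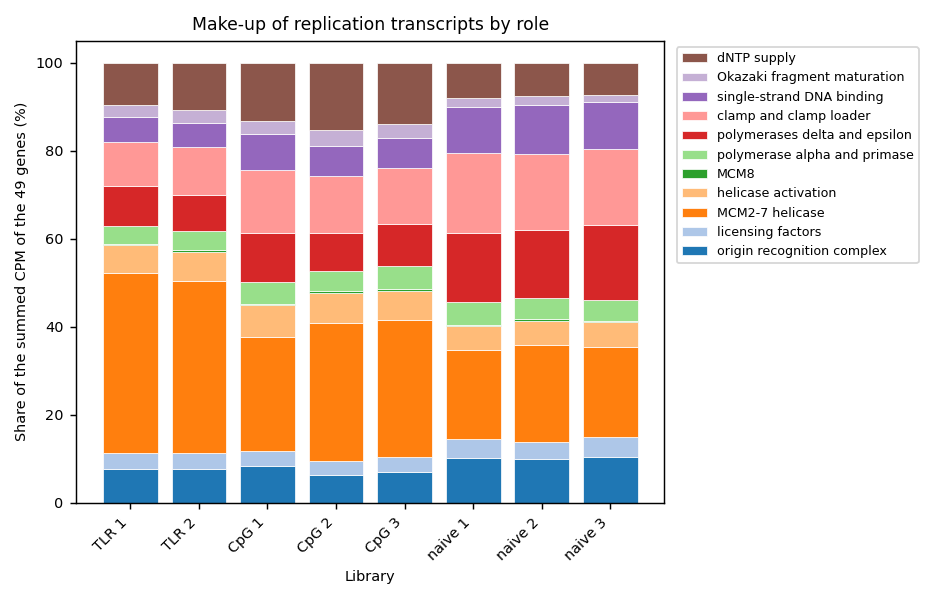
Share of the summed CPM of the 49 genes (vertical axis, %) by role in each library (horizontal axis). Each stacked bar adds to 100%. The MCM2-7 segment is widest in the 2 TLR libraries (about 40.0%) and narrowest in the 3 naive ones (20.9%), while the dNTP supply segment is widest in CpG.

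CpG replicate 1 stood apart from the other CpG libraries in the replication genes, and also over all genes. The chi-square per degree of freedom of 2 libraries over genes was 48.8 and 48.6 for its pairs. For CpG replicates 2 and 3 it was 28.3. Naive replicate 1 stood apart over all genes too, with 28.9 and 32.1 for its pairs and 10.4 for naive replicates 2 and 3. It held the highest naive value of 40.6% of all tested genes. Among the members, CpG replicate 1 was the lowest of the 3 CpG libraries for 46 of 49 and the highest for none. Of all tested genes, 38.4% had their highest CpG value there. All 49 members were below the mean of the other 2 CpG libraries, at a median of 0.678 times that mean (range 0.393 to 0.963). The median ratio was lowest, 0.530, in the MCM2-7 group among groups of more than 2 genes. In the other groups replicate 1 leaned the same way by less. The median of TLR replicate 1 over TLR replicate 2 was 0.942, with 34 of 49 members lower in replicate 1, where 50.9% of all tested genes were highest. The median of naive replicate 1 over the mean of the other naive libraries was 0.960, and it was the lowest naive library for 24 members, against 7 and 18 in the other naive libraries. The coefficient of variation over replicates had a median across members of 8.11% in TLR, 25.2% in CpG and 8.51% in naive cells. CpG replicate 1 also had the highest sum of B cell markers, 13712 CPM against 9317 and 9409 CPM in the other CpG libraries, and whether this has a part in the difference was not tested.

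The results were therefore read without that library and within each prefix. Without CpG replicate 1, 43 members were called higher and 1 lower in CpG against naive (median 1.48), where 25% and 23.6% of all tested genes were. In TLR against CpG, 17 were then called higher, among them all 6 MCM2-7 genes, and 5 lower, namely Rfc2, Rpa3, Pola1, Prim2 and Rrm2, with a median of 0.20, while 19.9% of all tested genes were higher and 20.7% lower. Within the 5 libraries of the common prefix, 40 members were higher and 1 lower in CpG against naive, where 24.4% and 23.7% of all tested genes were. There 17 were higher and 4 lower (Rfc2, Rpa3, Rrm2 and Tk1) in TLR against CpG, with 16.3% and 17.4% of all tested genes. In the 3 libraries of replicate 1 alone, which have no replicates, the members' median log2 fold change was 0.70 in TLR against CpG and 0.76 in CpG against naive. In the other 5 libraries it was 0.22 and 1.47. Of all 49 members, 45 were positive in TLR against CpG in the libraries of replicate 1 and 33 in the other 5, and for CpG against naive these counts were 45 and 46.

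The members with and without an E2F octamer can be set beside the calls with all libraries. Of all tested genes, 23.5% were called higher and 21.9% lower in CpG against naive, and 19.0% and 19.8% in TLR against CpG. Of the 16 with a match, 11 were called higher and 1 (Pold1) lower in CpG against naive, and 9 were called higher and none lower in TLR against CpG. Of the 25 with a promoter but no match, 20 were called higher and none lower in CpG against naive, and 8 higher and 1 lower in TLR against CpG. Mcm3, Mcm5, Mcm6 and Mcm7, printed above, all rose at both steps, and the promoter of Pold1 holds an octamer after its start although the gene fell. Mcm2, whose window holds no E2F octamer, also rose at both steps (1.49 and 0.89).

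Other genes of replication and its control, from lists made for this comparison, gave a wider view. Beside the counts of these lists, 23.5% of all tested genes were called higher and 21.9% lower in CpG against naive. In TLR against CpG the shares of all tested genes were 19.0% and 19.8%. In the list of fork accessory genes 16 of 19 were called higher with CpG and none lower (median 1.00), and 7 higher and 1 lower in TLR against CpG (median 0.29). Clspn (claspin, a checkpoint adaptor at the fork), Dtl (a targeting factor of the CRL4 ubiquitin ligase) and Pclaf (a PCNA-binding factor) rose with CpG by 3.24 ± 0.28, 3.14 ± 0.31 and 3.29 ± 0.35. Timeless, a fork protection factor, had 205 and 176 CPM in TLR, 51.3, 68.3 and 88.5 CPM in CpG and 37.3, 36.0 and 30.5 CPM in naive libraries. It rose at both steps (1.46 ± 0.20 in TLR against CpG, adjusted p = 0.000376), as did Pole3 and Dna2 (0.66 ± 0.12 and 0.84 ± 0.19 in TLR against CpG, the second not called without TLR replicate 1, adjusted p = 0.0528). Pold4, the small delta subunit, was the 1 called lower in TLR against CpG (-0.71 ± 0.17, adjusted p = 0.00799, or 0.0622 without TLR replicate 2), while 4 of the list were called lower without CpG replicate 1 and 2 within the common prefix. Chromatin assembly genes were called higher with CpG in 8 of 9 cases (median 2.29), led by Chaf1b, Uhrf1 and Asf1b (2.46 ± 0.14, 2.80 ± 0.20 and 2.42 ± 0.21), and 2 of 9, Nasp and Uhrf1, were higher in TLR against CpG. Neither was called there without TLR replicate 2 (adjusted p = 0.0605 and 0.12).

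The initiation factors outside the member list gave 4 higher and 1 lower of 8 with CpG (median 0.42), led by Ticrr, Recql4 and Mtbp (2.496 ± 0.23, 1.62 ± 0.21 and 1.00 ± 0.16). Recql4 and Mtbp were also higher in TLR against CpG (0.99 ± 0.22 and 0.55 ± 0.17), which Recql4 lost without TLR replicate 1 (adjusted p = 0.066) and Mtbp without CpG replicate 1 or 2 or TLR replicate 1 (0.0678 to 0.247), and within the common prefix none of the 8 was called in TLR against CpG. Donson was the lower one (-0.48 ± 0.14, adjusted p = 0.0172, but 0.0516 to 0.0769 without CpG replicate 2 or naive replicate 2 or 3). Of 10 checkpoint genes 3 rose and 2 fell with CpG, near the shares of all tested genes (23.5% higher and 21.9% lower). In TLR against CpG 6 rose and none was lower, against 19.0% and 19.8% of all tested genes. Within the 5 libraries of the common prefix, however, only 1 of the 10 was called higher there, against 16.3% of all tested genes. Chek1, the effector kinase, rose with CpG by 3.28 ± 0.25, whereas its upstream kinase Atr fell by 0.85 on the log2 scale (SE 0.15, adjusted p = 0.00156). Cdc25a, the phosphatase that Chek1 restrains, had 106 and 103 CPM in TLR, 47.1, 65.8 and 62.6 CPM in CpG and 27.1, 26.6 and 25.8 CPM in naive libraries, and rose at both steps. Rad1 and Hus1, clamp subunits of the checkpoint, rose in TLR against CpG (0.68 ± 0.16 and 0.63 ± 0.17), but not without TLR replicate 1 (adjusted p = 0.0927 and 0.134). Rad9a was the other gene lower with CpG (-0.41 ± 0.13, adjusted p = 0.0289), a call lost without CpG replicate 2 or 3 or naive replicate 2 or 3 (0.0886 to 0.0995).

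The wider list of dNTP supply moved in both directions. Of its 14 genes 13 were tested (Cda was not), 6 were higher and 4 lower with CpG (median 0.27), and 7 higher and 2 lower in TLR against CpG (median 0.66). Samhd1, the hydrolase that breaks dNTPs down, had 107 and 137 CPM in TLR, 499, 514 and 346 CPM in CpG and 899, 1041 and 1100.2 CPM in naive libraries. It stepped down without overlap, by -1.16 ± 0.18 in CpG against naive and -1.89 ± 0.21 in TLR against CpG (adjusted p = 0.000614 and 0.000111). Per kb, the Samhd1 to Rrm2 ratio was 0.224 ± 0.0159 in TLR (SD, n = 2), 0.703 ± 0.403 in CpG and 17.0 ± 2.81 in naive libraries (SD, n = 3). Macrophages also express Samhd1, macrophage markers were higher in the naive libraries as given above, and their part in this fall was not tested. The mitochondrial thymidine kinase Tk2 fell at both steps as well (-1.61 ± 0.15 and -0.66 ± 0.17), the second not called without either TLR library (adjusted p = 0.0702 and 0.0715).

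Unlike the 5 member genes of dNTP supply, several genes of this list were called higher in TLR against CpG. Shmt1, which makes the folate that thymidylate synthesis uses, had 119 and 127 CPM in TLR, 30.6, 40.3 and 37.9 CPM in CpG and 15.4, 20.4 and 15.0 CPM in naive libraries (1.76 ± 0.16 in TLR against CpG, adjusted p = 4.38e-05). Nme1, a nucleoside diphosphate kinase, had 158 and 141 CPM in TLR against 70.4, 49.6 and 50.2 CPM in CpG libraries (1.40 ± 0.17), although its near-identical neighbour Nme2 may share its reads. Dctpp1, Dctd, Slc29a1 and Dtymk rose at both steps. Dctpp1, a dCTP pyrophosphatase, rose with CpG by 1.27 ± 0.13. The other genes called lower with CpG were Dguok and Rrm2b (-0.46 ± 0.14 and -0.68 ± 0.25), and both calls were lost without CpG replicate 2, naive replicate 1 or naive replicate 3 (adjusted p = 0.0637 to 0.13), that of Rrm2b also without CpG replicate 1 or naive replicate 2 (0.11 and 0.093).

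The regulators upstream of these genes split in TLR cells. In the list of E2F, pocket protein and MuvB regulators 10 of 15 were higher and 1 lower with CpG (median 0.88), and 5 were higher and 6 lower in TLR against CpG (median 0.05). The activators E2f1 and its partner Tfdp1 rose with CpG (2.29 ± 0.16 and 2.53 ± 0.12) and again in TLR against CpG (0.71 ± 0.17 and 0.99 ± 0.13). E2f1 was not called in the second comparison without TLR replicate 2 (adjusted p = 0.0658). Another activator, E2f2, had 46.9 and 69.8 CPM in TLR, 358, 396 and 330 CPM in CpG and 121, 146 and 148 CPM in naive libraries. TLR was below both other groups (-2.63 ± 0.20 against CpG, adjusted p = 1.34e-05). E2f7 and E2f8, atypical E2Fs that repress, rose with CpG (3.03 ± 0.28 and 3.29 ± 0.30) and were lower in TLR against CpG (-1.19 ± 0.29 and -0.94 ± 0.31), the first not called without TLR replicate 1 (adjusted p = 0.0801) and the second not without any 1 of CpG replicates 2 and 3 or the TLR replicates (0.0572 to 0.237). The pocket protein genes Rb1 and Rbl2 and the partner gene Tfdp2 were lower in TLR against CpG (-0.88 ± 0.17, -1.22 ± 0.13 and -1.15 ± 0.18), and E2f4, E2f5 and E2f6 were higher (0.84 ± 0.10, 1.24 ± 0.16 and 0.68 ± 0.18, the last not called without either TLR library, adjusted p = 0.0736). Rbl2 was also the 1 gene lower with CpG, by -0.31 ± 0.11 (adjusted p = 0.0398), a call lost when any library but CpG replicate 3 or the TLR libraries was left out (0.0628 to 0.134).

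Of 11 S-phase entry genes, 10 were called higher with CpG and Cdkn1b, the inhibitor p27, lower (-0.60 ± 0.16), with a median of 1.99. Cdk1, the mitotic kinase, rose with CpG by 3.02 ± 0.31, and Cdkn2c, the inhibitor p18, by 1.61 ± 0.16. In TLR against CpG 1 was higher and 3 lower (median -0.16), or 5 lower without CpG replicate 1. Ccnd2, cyclin D2, rose further, with 1969 and 1606 CPM in TLR, 345, 673 and 556 CPM in CpG and 117, 153 and 125 CPM in naive libraries (1.77 ± 0.25 in TLR against CpG). Mki67, the proliferation marker Ki-67, had 115 and 116 CPM in TLR, 229, 300 and 277 CPM in CpG and 69.7, 61.2 and 37.4 CPM in naive libraries. TLR fell between the other groups for Mki67 (-1.22 ± 0.24 against CpG, adjusted p = 0.00274), in contrast to the MCM2-7 genes, which were highest in TLR. Cdkn2c and Cdkn1b were the other 2 that fell in TLR against CpG (-1.41 ± 0.19 and -1.23 ± 0.18).

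**Figure D5:**
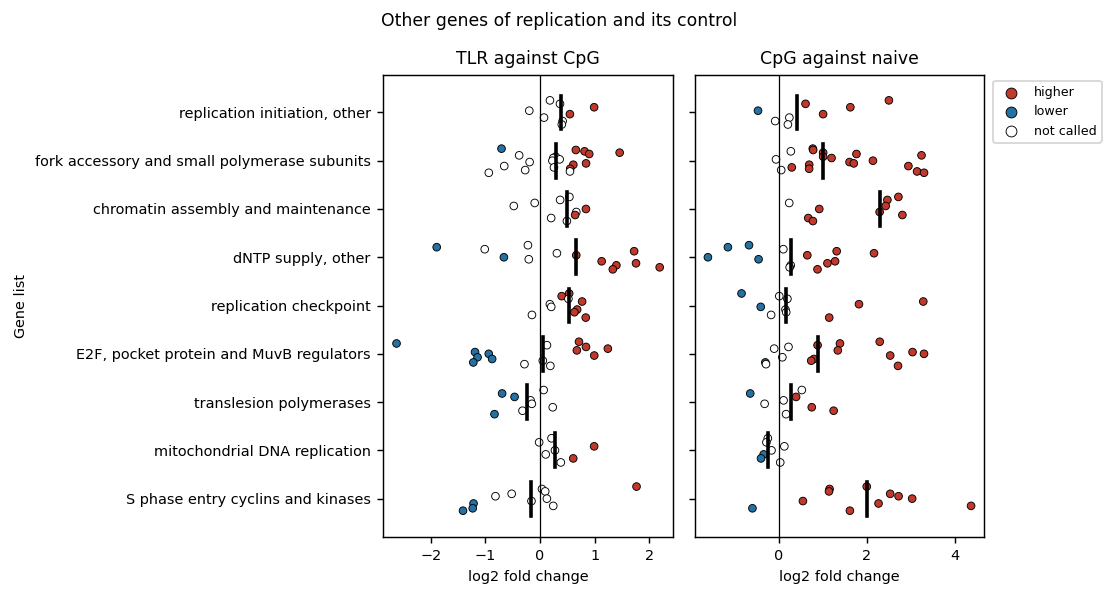
Log2 fold changes (horizontal axes) of the genes in 9 other lists of replication and its control (vertical axis) in TLR against CpG (left) and CpG against naive (right). Points are genes, red where called higher, blue where called lower and open where not called, and the black bar is the median of the list. Most fork, chromatin and S-phase entry genes lie right of 0 on the right, while E2F and pocket protein genes lie on both sides of 0 on the left.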

How the data were processed

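RNA sequencing of 8 libraries was used, of which 2 were TLR, 3 CpG and 3 naive. Per the labels' protocols, polyA RNA was made into strand-specific libraries. The submitters' processing notes name STAR, HTSeq, edgeR and build mm9 without versions, and the annotation release was not stated there. The authors deposited whole counts of reads for each gene, in a file for each library whose name says that strand was ignored. Summary lines (5 per file) were set apart from the 37583 genes, and of the total over genes and summary lines they held 7.84% to 15.0% as in no gene and 1.29% to 2.15% as ambiguous. Symbols, exon lengths and overlaps came from GENCODE M21, in which 32860 of the identifiers were found, and the other 4723 took up to 1.01% of a library.

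The analysis used edgeR 4.0.16 in R 4.3.3: filterByExpr, TMM, a quasi-likelihood fit with a mean per group (common dispersion 0.0421), a prior count of 0.125 for fold changes, and an SE from the log2 fold change and the F statistic. Libraries of a group differed by more than counting noise. Promoter windows are those of RefSeq for GRCm38.p6, and no coordinate of the files was placed on them. The fit was tested on simulated counts.

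The members and the other lists were chosen with earlier results of these data known. Values in every library are given for the highest member and the largest change of each role, the largest called changes in TLR against CpG, and members whose call differs from most of their role, and of each other list for up to 3 called genes by smallest p and those against its direction. The values of 1 gene that this rule names are not reported here. Values of further members and the ratios were chosen after they were seen. Alternatives were RLE factors, library size alone, DESeq2 1.42.0, no filter, a minimum mean of 1 CPM, a fit of the 2 compared groups alone, immunoglobulin genes left out, the replicate number as a block, the library prefix as a term, the 5 libraries of the common prefix alone, and each library left out in turn.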

Additional observations from a re-analysis of the deposited data

How the results depend on the processing

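The counts of members called higher in CpG against naive and in TLR against naive stayed within 1.5 times the reported ones under all alternatives. Members called lower in TLR against naive numbered 2 (Pold1 and Rfc1) under RLE factors, DESeq2, a minimum mean of 1 CPM, the 2 compared groups alone and the prefix term, and 2 without CpG replicate 1. In CpG against naive they numbered 2 (Pold1 and Cdt1) under DESeq2 and the replicate block, and in TLR against CpG 4 in the libraries of the common prefix. Leaving out 1 library at a time gave 1 to 2 members lower in CpG against naive, 8 to 21 higher and 0 to 5 lower in TLR against CpG, and 3516 to 5625 genes called in TLR against CpG. The 8 were found without either TLR library, where the lone one is assumed to vary like the other groups, the 0 without TLR replicate 2, the 5 without CpG replicate 1 and the 3516 without TLR replicate 1. The replicate numbers were not treated as pairs, since the deviations of same-numbered CpG and naive libraries correlated at 0.160, 0.104 and 0.00359, and CpG replicates 2 and 3 correlated best with another number. Same-numbered TLR and CpG libraries correlated at 0.326 and 0.297, and TLR and naive ones at 0.127 and 0.025. With the number as a block, 39 members were higher in CpG against naive, and 21 higher and 2 lower in TLR against CpG. Changes of sign occurred only in members called neither way with all libraries, and the cause was not tested. For TLR against CpG, the log2 fold change of Dbf4 became 0.00325 with library size alone, 0.0131 with the block and 0.0265 with the prefix term, and Rrm1 0.0505 with the block and 0.116 with the prefix term. Rpa1 became 0.0186 in TLR against naive with the prefix term. In the common prefix alone, values in TLR against CpG were -0.0374 for Orc5, -0.0374 for Gins3, -0.0579 for Pold1, -0.237 for Pole, -0.0937 for Rfc4 and -0.134 for Tyms, and Orc5 was 0.0114 in CpG against naive and -0.026 in TLR against naive. Leaving out libraries gave ranges in TLR against CpG of -0.0461 to 0.49 for Cdc6, -0.0284 to 0.279 for Cdc45, -0.196 to 0.21 for Gins3, -0.0468 to 0.434 for Mcm10, -0.0729 to 0.321 for Pole, -0.133 to 0.265 for Rfc4, -0.0195 to 0.427 for Lig1, -0.101 to 0.0877 for Dbf4, -0.308 to 0.278 for Rrm1, -0.681 to 0.0064 for Pola1, -0.0203 to 0.14 for Pold1 and -0.0725 to 0.526 for Tyms. The range was -0.186 to 0.0689 for Orc5 in CpG against naive and -0.141 to 0.0584 for Rpa1 in TLR against naive. With the longest transcript as length, the highest MCM2-7 subunit was 1.72, 1.46 and 1.33 times the lowest in TLR, CpG and naive cells. For the origin complex the ratio was then 4.70, 7.06 and 40.3 in the same groups. In the 150 bases before the start alone, 19.5% of members held an E2F octamer and 7.32% a CHR hexamer, against 1.44% and 11.2% of all genes. Depth limits Fen1 most, the member of lowest mean level, which had 25 to 128 counts in a library.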

Other observations

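Polymerases that serve DNA outside the main fork were read as another list. Of 8 genes of translesion synthesis, 3 were called higher and 1 lower in CpG against naive (median 0.27). Of all tested genes 23.5% and 21.9% were. In TLR against CpG none was higher and 3 were lower (median -0.25), against 19.0% and 19.8% of all tested genes. Polq, the polymerase of end joining by microhomology, rose with CpG (1.24 ± 0.19, edgeR adjusted p = 0.000747). Poli, which encodes polymerase iota, had 19.9 and 16.3 CPM in TLR, 30.4, 27.2 and 30.3 CPM in CpG and 44.4, 46.9 and 47.0 CPM in naive libraries, so that it was lower at both steps without overlap (-0.65 ± 0.12 in CpG against naive and -0.69 ± 0.14 in TLR against CpG). Primpol, a primase that restarts stalled forks, was lower in TLR against CpG (-0.83 ± 0.16, adjusted p = 0.00245). Rad18, the ubiquitin ligase that recruits such polymerases to PCNA, was called higher with CpG (0.74 ± 0.22, adjusted p = 0.019, but 0.0593 to 0.0671 without CpG replicate 2 or 3 or naive replicate 2 or 3). Polk was called higher with CpG and lower in TLR against CpG (0.39 ± 0.13 and -0.47 ± 0.15), the first call lost without any 1 library but CpG replicate 1 (0.0798 to 0.105) and the second lost without any 1 of CpG replicates 2 and 3 or the TLR replicates (0.0693 to 0.178).

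Genes of mitochondrial DNA replication were read as a further list. None of the 7 was called higher and 2 were lower in CpG against naive (median -0.25), against 21.9% of all tested genes called lower, namely Polrmt, the mitochondrial RNA polymerase, and Tfam, the packaging factor of mitochondrial DNA (-0.41 ± 0.12 and -0.35 ± 0.11, adjusted p = 0.02 and 0.0284). Both calls were lost without CpG replicate 3, naive replicate 2 or naive replicate 3 (0.0519 to 0.092), that of Polrmt also without CpG replicate 2 (0.0804) and that of Tfam also without CpG replicate 1 (0.05). In TLR against CpG cells 2 were higher and none lower, against 19.0% and 19.8% of all tested genes. Twnk, the mitochondrial replicative helicase, had 66.0 and 65.4 CPM in TLR, 33.3, 27.5 and 38.3 CPM in CpG and 24.1, 33.3 and 33.7 CPM in naive libraries, and rose by 0.99 ± 0.18 (adjusted p = 0.0019). Polrmt rose by 0.61 ± 0.13 (adjusted p = 0.00537), which left it at 86.3 and 89.9 CPM in TLR, against 68.0, 50.7 and 54.6 CPM in CpG libraries.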
